A study of Mus musculus with 12 samples.

Results

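The 46 interferon-stimulated genes described here were chosen by name, as genes known to be induced by interferons, and they stand among 46103 genes listed in the deposited files. All 46 are in the files, 44 were above 0 in at least 1 library, and 42 reached 1 RPKM in at least 3 libraries and were tested. RPKM, the unit of the files, is the number of reads scaled by transcript length and by the library total. RNA was measured in 12 libraries of 100 sorted cells each, from bone marrow and spleen of C57BL/6 mice with a disease like chronic myeloid leukemia (CML). DP cells were BCR-ABL1+CD27+G0M+ KSL cells of vehicle-treated mice and SP cells were BCR-ABL1+CD27+G0M- KSL cells of the same treatment, with 3 libraries each. IMDP and IMSP cells were the corresponding G0M+ and G0M- populations of mice treated with the BCR-ABL1 kinase inhibitor imatinib, 40 mg/kg by oral gavage once daily from day 10 after transplantation, again with 3 libraries each.

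All of these groups share the same construction. The mice used in the study were females of 6 to 12 weeks. Bone marrow of 5FU-treated mice was transduced with a retrovirus carrying BCR-ABL1 and transplanted into lethally irradiated recipients, so the leukemia arises from virus-infected cells in a host whose own blood system was ablated. KSL cells lack lineage markers and carry Sca1 and c-Kit. G0M is a fluorescent fusion to a p27 protein that is inactive on cyclin-dependent kinases, which marks cells in G0, and it is switched on in the Rosa26 allele by Cre under the blood-wide Vav1 promoter. G0M+CD27+ cells are the quiescent fraction that the study calls CML stem cells. The labels do not say whether the 3 libraries of a group came from separate mice, so p-values measure only the spread between these libraries, which may be technical.

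Interferons are secreted proteins that bind receptors on nearly all cells. Type I interferons act through Ifnar1 and Ifnar2, the kinases Jak1 and Tyk2 and transcription factors, Stat2 and Irf9 among them, that bind the interferon-stimulated response element (ISRE) in promoters, whereas interferon gamma acts through the gamma-activated site (GAS). The genes induced include sensors of foreign nucleic acid, enzymes that degrade viral RNA, GTPases that attack intracellular parasites, and ubiquitin-like modifiers. In blood stem cells, interferons are known to drive dormant cells into cycle, and stem cells are known to keep some of these genes on without infection.

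The promoters of the genes that differed most between G0M+ and G0M- cells are given first, because interferons are known to act on these genes through the ISRE and the GAS. The promoter table of RefSeq (build GRCm38.p6) covers 250 bases before to 50 bases after each gene start, and held 34 of the 46 genes. The ISRE was searched as GAAANNGAAA and the GAS as TTCNNNGAA, on both strands, so an ISRE on the other strand appears as its reverse complement. The ISRE letters were found in 18 of the 34 genes (52.94%), against 3.99% of the 27025 genes in the table. The GAS letters were found in 9 of the 34 (26.47%), against 9.55% of all genes. Of the 14 genes past the threshold in any comparison below, 10 were in the table, and 5 of these held the ISRE letters and 3 the GAS letters. Of the 24 others in the table, 13 held the ISRE letters. The 4 promoters below belong to the genes in the table with the smallest adjusted p between populations averaged over treatments, and the capitals mark a match.
Oas3: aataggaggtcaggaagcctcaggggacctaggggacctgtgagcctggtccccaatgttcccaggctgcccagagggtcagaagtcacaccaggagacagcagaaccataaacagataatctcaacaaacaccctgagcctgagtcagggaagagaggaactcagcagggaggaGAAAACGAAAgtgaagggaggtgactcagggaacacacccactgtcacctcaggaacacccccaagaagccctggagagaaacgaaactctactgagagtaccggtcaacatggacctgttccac
Ifi44: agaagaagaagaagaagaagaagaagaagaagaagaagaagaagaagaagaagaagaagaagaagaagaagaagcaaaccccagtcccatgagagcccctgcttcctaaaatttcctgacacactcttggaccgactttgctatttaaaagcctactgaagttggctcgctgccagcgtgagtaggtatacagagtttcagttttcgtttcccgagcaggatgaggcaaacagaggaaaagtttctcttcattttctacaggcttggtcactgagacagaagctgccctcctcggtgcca
Samhd1: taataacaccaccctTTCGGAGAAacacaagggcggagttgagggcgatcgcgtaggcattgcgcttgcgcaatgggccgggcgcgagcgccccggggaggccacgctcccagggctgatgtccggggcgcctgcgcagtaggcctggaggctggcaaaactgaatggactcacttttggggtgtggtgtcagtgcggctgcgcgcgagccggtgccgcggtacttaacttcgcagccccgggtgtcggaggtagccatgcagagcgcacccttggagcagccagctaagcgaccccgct
Parp12: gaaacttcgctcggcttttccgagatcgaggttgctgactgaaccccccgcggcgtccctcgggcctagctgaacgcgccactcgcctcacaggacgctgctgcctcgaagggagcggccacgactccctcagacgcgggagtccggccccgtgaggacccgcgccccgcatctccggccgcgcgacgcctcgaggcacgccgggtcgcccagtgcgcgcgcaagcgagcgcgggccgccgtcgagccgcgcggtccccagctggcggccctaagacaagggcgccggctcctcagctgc

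The Oas3 promoter lies at chr5:120777610-120777909 on the minus strand and holds the ISRE letters with the first base 75 bases before the gene start. The Samhd1 promoter (chr2:157135047-157135346, minus strand) holds the GAS letters 235 bases before the start. The windows of Ifi44 (chr3:151749861-151750160, minus strand) and Parp12 (chr6:39118300-39118599, minus strand) hold neither string of letters. Stretches of 30 bases around the ISRE letters are shown for the other genes past the threshold that hold them, a choice made after their values were seen.
Ddx58, chr4:40239804-40239833, minus strand: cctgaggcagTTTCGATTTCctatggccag
Ifit1, chr19:34640775-34640804, plus strand: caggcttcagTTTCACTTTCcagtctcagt
Ifit1, chr19:34640794-34640823, plus strand: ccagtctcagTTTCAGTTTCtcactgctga
Bst2, chr8:71537583-71537612, minus strand: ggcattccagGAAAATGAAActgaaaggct
Bst2, chr8:71537577-71537606, minus strand: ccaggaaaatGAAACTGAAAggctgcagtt
Igtp, chr11:58199512-58199541, plus strand: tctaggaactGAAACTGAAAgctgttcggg
Ifit1 and Bst2 each hold the letters at neighbouring places, and the pair in Bst2 overlaps. A match describes the letters in these windows only. No binding was measured.

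Libraries were divided by 11.4 to 20.6 M reads to give the RPKM, and of these reads 25.9% to 37.1% fell on listed features. Proliferation genes (Mki67, Top2a, Ccnb1 and Cdk1) followed the sort: their summed level was 25.2 to 60.9 RPKM in DP, 163 to 185 in SP, 18.6 to 32.1 in IMDP and 163 to 216 in IMSP libraries, and all 4 were lower in G0M+ cells. Sample descriptions number the imatinib libraries 1 to 6 and the vehicle libraries 7 to 12, so treatment and library number cannot be told apart. Neighbouring numbers always hold 1 G0M+ and 1 G0M- library of the same treatment, and over all genes tested the deviations of such neighbours from their group means were correlated, with r from 0.43 to 0.65. These pairs are DP1 with SP2, DP2 with SP3, DP3 with SP1, and IMDP with IMSP of the same replicate number. The labels do not say what the pairs share.

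Most interferon-stimulated genes stood higher in G0M+ than in G0M- cells, with or without imatinib, by a modest amount. Averaged over treatments, 13 of the 42 genes were higher in G0M+ cells past the adjusted p threshold of 0.05 and 0 were lower, where 26.3% of all 10072 genes tested passed in either direction and 5.32% passed as higher. The log2 fold change, on the log2(RPKM + 0.1) scale, was above 0 for 40 of the 42 genes, with a median of 0.48, whereas it was above 0 for 36.61% of all genes, whose median was -0.13. The 13 genes were Oas2, Oas3, Ifi44, Ifi27, Ifit1, Irf7, Zbp1, Ddx58, Samhd1, Parp12, Parp14, Dtx3l and Igtp, which span sensors, a transcription factor, antiviral enzymes and a GTPase. Of the 42 genes, 5 (Zbp1, Ifit1, Rsad2, Isg15 and Iigp1) reached 1 RPKM in fewer than 3 G0M- libraries. They passed the filter only because of the population in which they are high, and 0 genes did so the other way. Of these 5, Zbp1 and Ifit1 reached 1 RPKM in G0M+ libraries only. All 5 enter the medians, pair counts and mean levels given for the 42 genes. The count of 13 fell to 5 without DP replicate 3, without IMSP replicate 1 or without SP replicate 2, and to 6 without IMDP replicate 2, while it rose to 20 without SP replicate 1.

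**Figure D1:**
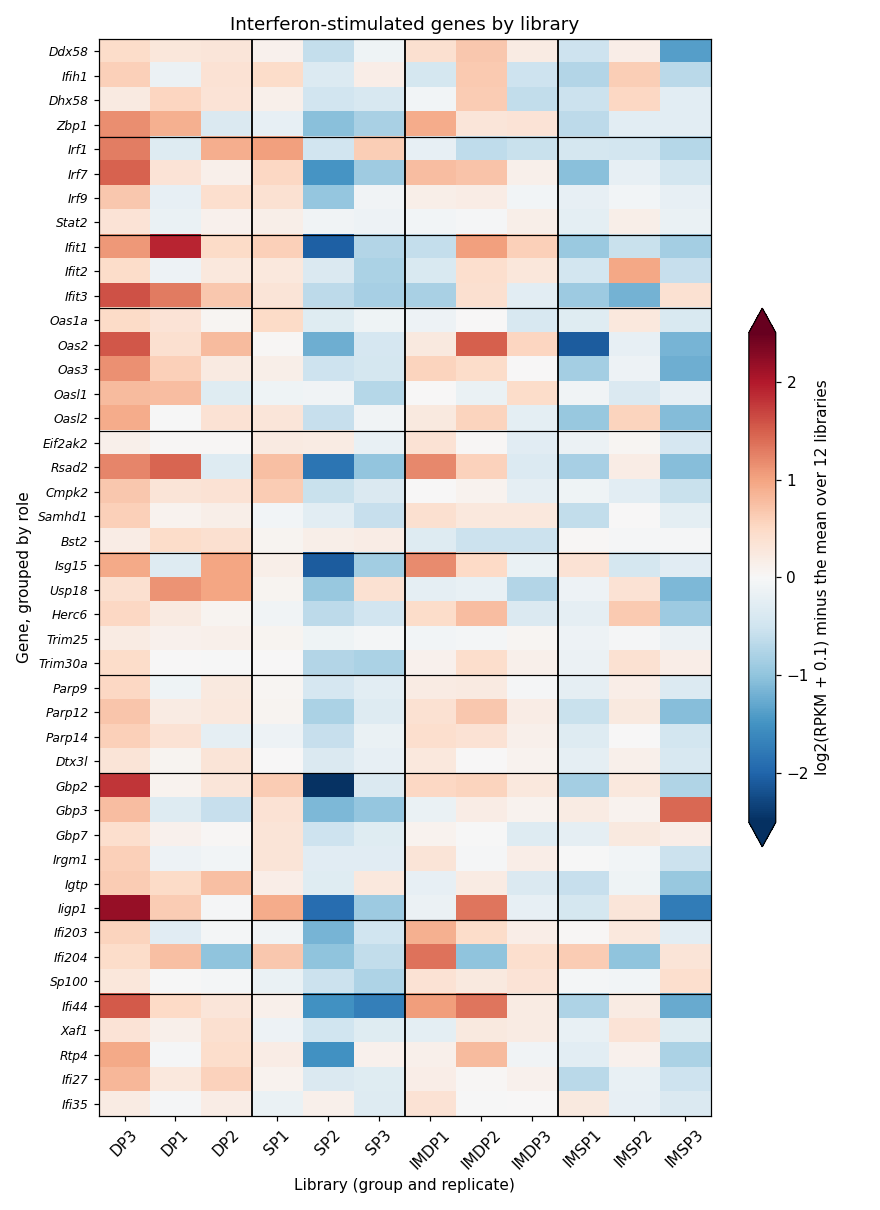
Level of the 44 genes above 0 in each library, as log2(RPKM + 0.1) minus the gene's mean over the 12 libraries (red higher, blue lower, colours saturating at the ends of the bar). Genes are grouped by role between horizontal lines, libraries by group between vertical lines, and within each treatment the libraries of both populations stand in the same order of their neighbouring pairs. Red prevails most evenly in DP3, and blue in SP2 and IMSP3. The columns do not split cleanly by population. The mean log2 level of the 42 tested genes was 2.055 in SP1 and 1.935 in IMSP2, next to 2.079 in DP2 and 1.826 in IMDP3.

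Under vehicle, 0 of the 42 genes passed the threshold between DP and SP cells in limma, while 20 had an unadjusted p under 0.05 (13.2% of all genes did) and limma-voom on recovered reads also called 0. Of all genes, 2.26% passed in either direction and 0.288% as higher in DP cells. The log2 fold change was above 0 for 41 of the 42, and its median was 0.58 against -0.02 over all genes. In 16 genes, all 3 DP libraries stood above all 3 SP libraries, where 9.68% of all genes did so. Under imatinib, 6 of the 42 genes passed between IMDP and IMSP cells, of which 5 were higher in IMDP cells (Oas2, Oas3, Ddx58, Samhd1 and Ifi27) and Bst2 was lower. In this comparison 25.6% of all genes passed, 23.3% as lower and 2.37% as higher. That split depends on the scaling: with libraries scaled to the same median 9.18% of all genes passed as lower and 6.30% as higher, and 10 of the 42 genes passed, all as higher. With the reads on listed features as denominator the shares were 8.17% and 7.33%, and 12 of the 42 passed, again all as higher. The median log2 fold change of the 42 was 0.33 and that of all genes was -0.25. In 9 genes, all IMDP libraries stood above all IMSP libraries, against 6.21% of all genes. The count of 6 fell to 0 without IMDP replicate 2 or without IMSP replicate 1, and to 2 without any of IMDP replicate 1, IMDP replicate 3 and IMSP replicate 3.

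The difference between populations was read more sharply within neighbouring library pairs. In all 6 pairs, 25 of the 42 genes were higher in the G0M+ library, where 11.3% of all genes were. These 25 include the 5 genes that passed the filter only because of their G0M+ libraries. Another 9 genes were higher in 5 pairs, 6 in 4 pairs, and Eif2ak2 and Bst2 in 3. Within single pairs, 31 to 41 of the 42 genes were higher in the G0M+ library, the lowest number in the IMDP2 and IMSP2 pair. With the library pair as a block in the limma fit, 17 genes passed as higher in DP than in SP cells (4.17% of all genes). Between IMDP and IMSP cells, 13 passed as higher and Bst2 as lower in IMDP cells, where 8.22% and 35.9% of all genes did. Averaged over treatments, 28 passed as higher in G0M+ cells (13.4% of all genes). Below, whether a gene passed is given for the fit without this block, unless another setting is named.

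The mean log2 level of the 42 genes, less that of all genes tested, placed each library on one scale. It was -0.24, -0.13 and 0.36 in DP libraries 1 to 3, and -0.26, -1.15 and -0.74 in SP libraries. In the imatinib groups it was -0.15, 0.18 and -0.20 in IMDP and -0.935, -0.49 and -0.87 in IMSP libraries. Every G0M+ library stood above every G0M- library on this scale, although DP1 and SP1 were close. The highest library of each G0M+ group, DP3 and IMDP2, was the neighbour of the highest library of the G0M- group, SP1 and IMSP2. The genes varied together between libraries of one group: over 861 pairs of genes, the correlation of deviations from group means over 12 libraries had a median of 0.54 and was above 0 in 756 pairs, which share their libraries and denominators.

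**Figure D2:**
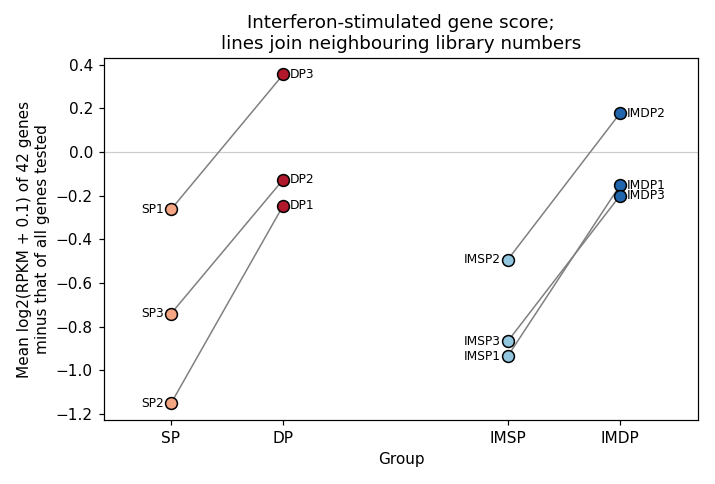
Mean log2(RPKM + 0.1) of the 42 tested genes minus the mean of all genes tested (vertical axis) in each library, by group. Grey lines join neighbouring library numbers; each of the 6 lines rises from the G0M- to the G0M+ library, and the DP3 line starts from SP1, the highest SP library at -0.26.

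Cytosolic sensors recognise viral nucleic acid, and 2 of the 4 were higher in G0M+ cells averaged over treatments. Ddx58, which encodes RIG-I, a sensor of double-stranded RNA ends, stood at 5.75, 5.84 and 6.48 RPKM in DP, 5.06, 3.06 and 4.37 in SP, 6.28, 7.56 and 5.42 in IMDP, and 3.25, 5.29 and 1.75 in IMSP libraries. All IMDP libraries were above all IMSP libraries, the DP libraries were above the SP libraries by less, and IMSP3 was the lowest of all. Ddx58 had a log2 fold change of 1.004 ± 0.32 (SE, limma adjusted p = 0.0375) in IMDP against IMSP cells, and 0.78 ± 0.22 (SE, limma adjusted p = 0.0262) averaged over treatments. Zbp1, a sensor of Z-form nucleic acid that can trigger cell death, had a low level of 1.12, 0.414 and 1.38 RPKM in DP, 0.472, 0.218 and 0.275 in SP, 1.15, 0.715 and 0.737 in IMDP, and 0.316, 0.448 and 0.446 in IMSP libraries. The 3 IMDP libraries lay above the 3 IMSP libraries, while DP2 fell within the SP range. Its average log2 fold change was 1.09 ± 0.34 (SE, limma adjusted p = 0.0367), and 8 to 44 reads lay behind its values. Zbp1, too, reached 1 RPKM in 3 G0M+ libraries and in 0 G0M- libraries. With no filter on low values its limma adjusted p was 0.0373. Ifih1 and Dhx58, which encode the related sensors MDA5 and LGP2, had average log2 fold changes of 0.17 and 0.35 and did not pass.

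Among the transcription factors that carry the response, 1 of 4 passed. Irf7, the factor that amplifies type I interferon production, stood at 3.04, 2.58 and 6.78 RPKM in DP, 3.44, 0.792 and 1.23 in SP, 4.08, 3.93 and 2.59 in IMDP, and 1.09, 2.05 and 1.69 in IMSP libraries. IMDP and IMSP libraries did not overlap, whereas SP1 stood above DP1 and DP2. Its log2 fold change was 1.18 ± 0.34 (SE, limma adjusted p = 0.0255) averaged over treatments. Irf9 and Stat2, partners in the complex that binds the ISRE, had average log2 fold changes of 0.38 and 0.10 and did not pass. Irf1, the second most abundant of the 46 genes by mean RPKM and itself a transcription factor, is described although it did not pass, a choice made after its values were seen. It stood at 10.6, 25.0 and 32.2 RPKM in DP, 26.9, 9.42 and 20.4 in SP, 11.4, 8.54 and 8.92 in IMDP, and 9.76, 9.66 and 7.99 in IMSP libraries. The 6 imatinib libraries lay close together, whereas vehicle libraries were spread, and the neighbouring libraries DP1 and SP2 were as low as the imatinib libraries. Irf1 had a log2 fold change of -1.09 ± 0.41 (SE, limma adjusted p = 0.173) in IMDP against DP cells, and -1.005 ± 0.29 (SE, limma adjusted p = 0.108) for imatinib averaged over populations.

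The IFIT proteins bind foreign RNA and block its translation. Ifit1 stood at 2.47, 0.848 and 1.36 RPKM in DP, 0.940, 0.0670 and 0.310 in SP, 0.352, 1.30 and 0.940 in IMDP, and 0.259, 0.367 and 0.281 in IMSP libraries, with 3 to 102 reads behind these values. SP2 was the lowest library and DP1 the highest, SP1 stood above DP2, and IMSP2 stood above IMDP1. The average log2 fold change was 1.50 ± 0.48 (SE, limma adjusted p = 0.037). Ifit1 reached 1 RPKM in 3 libraries, all G0M+, so the filter let it in through the population where it is high. It missed the threshold with no filter on low values (limma adjusted p = 0.0535) and in the fit blocked by replicate number (limma adjusted p = 0.0503). Ifit2 had an average log2 fold change of 0.31 and did not pass, and Ifit3, at 0 to 0.584 RPKM, stayed below the filter.

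The OAS family makes the messenger that activates RNase L, which degrades RNA, and the 5 members listed here lie on chromosome 5. Oas2 (5:120730333 to 120749853) had the largest average difference of the 42 genes. It stood at 3.66, 4.86 and 8.33 RPKM in DP, 2.84, 1.13 and 2.06 in SP, 3.29, 8.02 and 4.08 in IMDP, and 0.581, 2.40 and 1.19 in IMSP libraries. Every G0M+ library exceeded every G0M- library, with the nearest values at 3.29 in IMDP1 and 2.84 in SP1. The log2 fold change was 1.45 ± 0.50 (SE, limma adjusted p = 0.22) in DP against SP, 1.91 ± 0.50 (SE, limma adjusted p = 0.018) in IMDP against IMSP, and 1.68 ± 0.35 (SE, limma adjusted p = 0.00656) averaged over treatments.

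Oas3 (5:120753098 to 120777661), whose promoter with the ISRE letters is printed above, stood at 6.36, 4.93 and 9.34 RPKM in DP, 4.67, 2.91 and 3.05 in SP, 6.20, 5.76 and 4.24 in IMDP, and 2.28, 3.84 and 1.73 in IMSP libraries. DP libraries were above SP libraries and IMDP above IMSP libraries without overlap, DP3 being the highest. For Oas3 the log2 fold change was 1.07 ± 0.31 (SE, limma adjusted p = 0.0261) in IMDP against IMSP and 0.997 ± 0.22 (SE, limma adjusted p = 0.00796) averaged over treatments. The other members, Oas1a, Oasl1 and Oasl2, did not pass, with average log2 fold changes of 0.12, 0.51 and 0.62. Oas1a belongs to a cluster of near-identical copies, so its reads may be split among them.

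**Figure D3:**
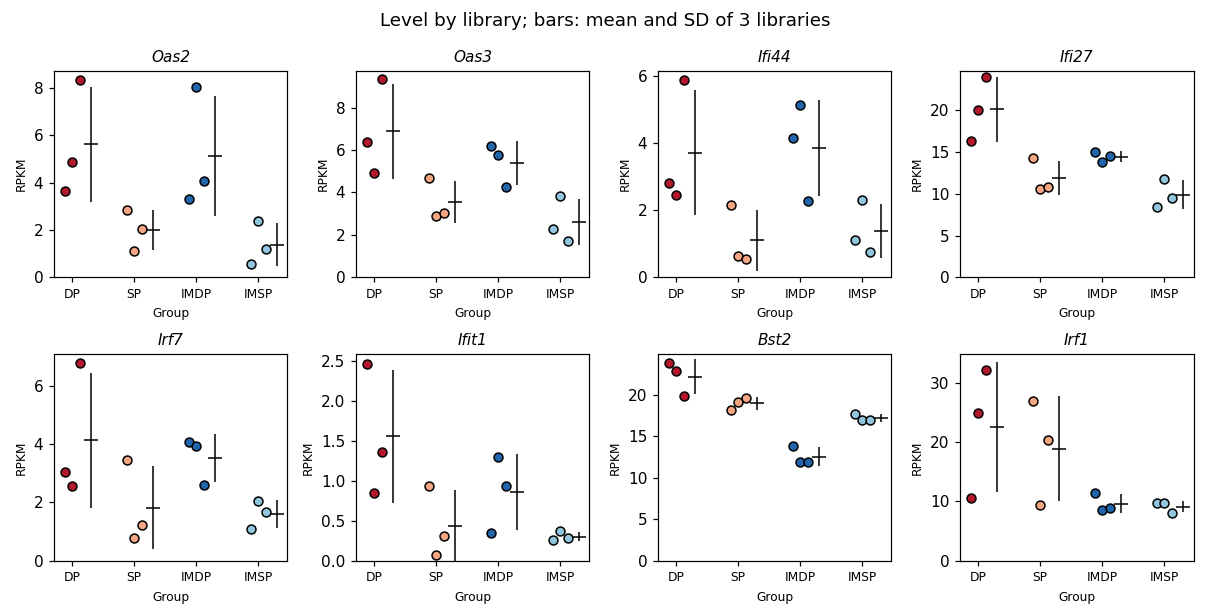
RPKM (linear axis from 0) of 8 genes in each library, with the mean and SD of the 3 libraries of a group beside the points. Oas2 and Oas3 are higher in DP than in SP and in IMDP than in IMSP libraries without overlap, Bst2 is lowest in the 3 IMDP libraries at 11.9 to 13.9, and Irf1 is spread in vehicle libraries from 9.42 to 32.2 and narrow under imatinib.

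Among the other antiviral effectors, Samhd1 and Bst2 passed in at least 1 comparison. Samhd1, an enzyme that breaks down the nucleotides needed for reverse transcription, stood at 7.29, 7.53 and 10.3 RPKM in DP, 6.47, 5.70 and 4.55 in SP, 8.98, 8.22 and 8.25 in IMDP, and 4.42, 6.90 and 5.71 in IMSP libraries. Both G0M+ groups lay above their G0M- groups without overlap. Samhd1 had a log2 fold change of 0.59 ± 0.20 (SE, limma adjusted p = 0.0444) in IMDP against IMSP and 0.58 ± 0.14 (SE, limma adjusted p = 0.0113) averaged over treatments. With the replicate number as a block, which pairs IMDP and IMSP libraries, the first missed the threshold (limma adjusted p = 0.0596). Rsad2 (viperin), its chromosomal neighbour Cmpk2, and Eif2ak2 (the kinase PKR) had average log2 fold changes of 1.26, 0.41 and 0.09 and did not pass. Mx1 and Mx2, GTPases that are among the best known interferon-stimulated genes, were listed at 0 in all 12 libraries.

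Bst2, which encodes tetherin, a membrane protein that holds budding virus on the cell, was the most abundant of the 46 genes and the only one of the 42 that passed as lower in IMDP than in IMSP cells. It stood at 23.9, 22.9 and 19.9 RPKM in DP, 18.1, 19.2 and 19.7 in SP, 13.9, 11.9 and 11.9 in IMDP, and 17.8, 16.9 and 17.0 in IMSP libraries. The DP libraries were all above the SP libraries, whereas the IMDP libraries were all below the IMSP libraries and below every other library. Its log2 fold change was 0.22 ± 0.12 (SE, limma adjusted p = 0.465) in DP against SP and -0.46 ± 0.12 (SE, limma adjusted p = 0.0183) in IMDP against IMSP. Against the vehicle counterpart it was -0.82 ± 0.12 (SE, limma adjusted p = 0.0338) in IMDP against DP and -0.14 ± 0.12 (SE, limma adjusted p = 0.803) in IMSP against SP, and -0.48 ± 0.08 (SE, limma adjusted p = 0.0342) for imatinib averaged over populations. The median of all genes was itself -0.25 in IMDP against IMSP, and in 32.8% of all genes the IMDP libraries were all below the IMSP libraries. With libraries scaled to the same median, Bst2 in IMDP against IMSP was -0.18 (limma adjusted p = 0.245), and in IMDP against DP it was -0.67 (limma adjusted p = 0.0557). The interaction of population and treatment was -0.68 for Bst2, with an unadjusted p of 0.00178 and a limma adjusted p of 0.534. The interaction was further below 0, with wider errors, for Usp18 (-1.09 ± 0.57, SE), Gbp3 (-1.08 ± 0.65), Isg15 (-0.84 ± 0.80) and Ifit1 (-0.76 ± 0.95), with limma adjusted p from 0.551 to 0.80.

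The ISG15 pathway attaches a ubiquitin-like protein to other proteins, and the TRIM ligases modulate sensing. None of its 5 genes passed in any comparison of the limma fit without a block. In that fit 3 had an unadjusted p under 0.05 in DP against SP, and 2 did in the average, where 41.4% of all genes did. Trim30a, the most abundant of them, stood at 9.60, 9.46 and 13.3 RPKM in DP, 9.61, 5.71 and 5.50 in SP, 10.4, 13.0 and 10.6 in IMDP, and 8.61, 12.5 and 10.8 in IMSP libraries. SP2 and SP3 were the lowest libraries, and the other 10 lay between 8.61 and 13.3 RPKM. Its average log2 fold change was 0.38 ± 0.16 (SE, limma adjusted p = 0.1). Isg15 itself rested on 2 to 24 reads per library, with a range of 0.156 to 2.35 RPKM and an average log2 fold change of 1.04 ± 0.40 (SE, limma adjusted p = 0.0712). Usp18, the protease that removes ISG15 and dampens the receptor, Herc6, the mouse ligase for ISG15, and Trim25 had average log2 fold changes of 0.46, 0.56 and 0.14.

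Parp9, Parp12, Parp14 and the ubiquitin ligase Dtx3l form a group of interferon-induced ADP-ribosylation proteins, of which 3 of 4 passed in the average. Parp12, an ADP-ribosyltransferase with antiviral action, stood at 3.85, 3.98 and 5.42 RPKM in DP, 3.51, 1.88 and 2.65 in SP, 4.34, 5.37 and 3.78 in IMDP, and 2.24, 3.95 and 1.54 in IMSP libraries. DP libraries were above SP libraries without overlap, and IMSP2 alone crossed into the IMDP range. The average log2 fold change was 0.80 ± 0.22 (SE, limma adjusted p = 0.0223).

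Parp14 stood at 3.81, 2.50 and 4.51 RPKM in DP, 2.69, 1.94 and 2.62 in SP, 3.94, 3.82 and 3.21 in IMDP, and 2.34, 2.95 and 2.12 in IMSP libraries, with IMDP above IMSP libraries and DP2 within the SP range. Its average log2 fold change was 0.54 ± 0.16 (SE, limma adjusted p = 0.0275). Dtx3l, the partner of Parp9, was more abundant, at 13.2, 15.6 and 15.6 RPKM in DP, 12.5, 9.74 and 10.8 in SP, 15.0, 12.5 and 13.3 in IMDP, and 10.6, 13.6 and 9.48 in IMSP libraries. DP and SP libraries did not overlap, and IMSP2 stood above IMDP2 and IMDP3. The average log2 fold change was 0.36 ± 0.11 (SE, limma adjusted p = 0.0367), and Parp9 had one of 0.35 and did not pass (limma adjusted p = 0.0898).

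The GBP and IRG proteins are GTPases that attack the vacuoles of intracellular parasites and respond chiefly to interferon gamma. Of 6 genes 1 passed. Igtp (Irgm3) stood at 10.4, 12.6 and 11.6 RPKM in DP, 8.29, 6.00 and 8.96 in SP, 6.43, 8.61 and 5.72 in IMDP, and 4.92, 6.87 and 3.81 in IMSP libraries. DP libraries lay above all SP and all IMDP libraries, while SP2 stood below IMSP2. Igtp had a log2 fold change of 0.50 ± 0.16 (SE, limma adjusted p = 0.0398) for G0M+ against G0M- cells and -0.67 ± 0.16 (SE, limma adjusted p = 0.0707) for imatinib averaged over populations, the latter short of the threshold. Igtp is listed as 2 copies with mean levels of 3.88 and 3.97 RPKM that were summed. Whether the same reads were counted for both is not given in the sources used here.

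Gbp2, Gbp3, Gbp7, Irgm1 and Iigp1 did not pass, with average log2 fold changes from -0.0030 (Gbp3) to 1.26 (Iigp1). For Gbp3 the log2 fold change was 0.54 ± 0.46 (SE, limma adjusted p = 0.627) in DP against SP and -0.54 ± 0.46 (SE, limma adjusted p = 0.398) in IMDP against IMSP. Among them, Iigp1 ranged from 0.222 to 5.38 RPKM and Gbp2 from 0.408 to 9.61 RPKM. For both genes the highest library was DP3 and SP2 was the lowest. Members of these families resemble each other closely, so their reads may be split.

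In the p200 and nuclear body group, 0 of 2 tested genes passed in limma, while both had an unadjusted p under 0.05 in the average, as 41.4% of all genes did. Ifi203, a member of the p200 family of DNA-binding proteins, stood at 5.10, 6.04 and 9.23 RPKM in DP, 5.87, 2.73 and 4.37 in SP, 11.6, 8.59 and 6.95 in IMDP, and 6.32, 7.45 and 5.19 in IMSP libraries. SP2 was lowest and IMDP1 highest, and both treatments overlapped between populations. Its average log2 fold change was 0.58 ± 0.21 (SE, limma adjusted p = 0.0599). Sp100, a component of nuclear bodies, had an average log2 fold change of 0.39 ± 0.13 (SE, limma adjusted p = 0.0515). It was also the only one of the 42 genes with all 3 IMSP libraries above all 3 SP libraries, where 11.1% of all genes had this order. Ifi204, at 0 to 0.411 RPKM, stayed below the filter.

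Of the 5 remaining genes, Ifi44 and Ifi27 passed. Ifi44, a cytoplasmic protein whose action is less well understood, stood at 2.83, 2.46 and 5.88 RPKM in DP, 2.15, 0.628 and 0.536 in SP, 4.15, 5.13 and 2.29 in IMDP, and 1.11, 2.30 and 0.765 in IMSP libraries. DP and SP libraries did not overlap, while IMSP2 and IMDP3 had nearly the same level. For Ifi44 the log2 fold change was 1.81 ± 0.53 (SE, limma adjusted p = 0.131) in DP against SP, 1.47 ± 0.53 (SE, limma adjusted p = 0.0612) in IMDP against IMSP and 1.64 ± 0.38 (SE, limma adjusted p = 0.0098) averaged over treatments.

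Ifi27 (12:103434211 to 103440239), a small mitochondrial and nuclear membrane protein, had the smallest adjusted p of the 42 genes in the average over treatments. It stood at 16.2, 20.1 and 23.9 RPKM in DP, 14.3, 10.5 and 10.8 in SP, 15.0, 13.8 and 14.5 in IMDP, and 8.39, 11.8 and 9.43 in IMSP libraries. DP libraries were above SP and above IMDP libraries, and IMDP above IMSP libraries. The log2 fold change was 0.75 ± 0.18 (SE, limma adjusted p = 0.0561) in DP against SP, 0.56 ± 0.18 (SE, limma adjusted p = 0.0407) in IMDP against IMSP and 0.65 ± 0.13 (SE, limma adjusted p = 0.00474) averaged over treatments. In IMDP against IMSP it missed the threshold with the replicate block (limma adjusted p = 0.0543). Rtp4, Xaf1 and Ifi35 had average log2 fold changes of 0.73, 0.36 and 0.24 and did not pass.

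**Figure D4:**
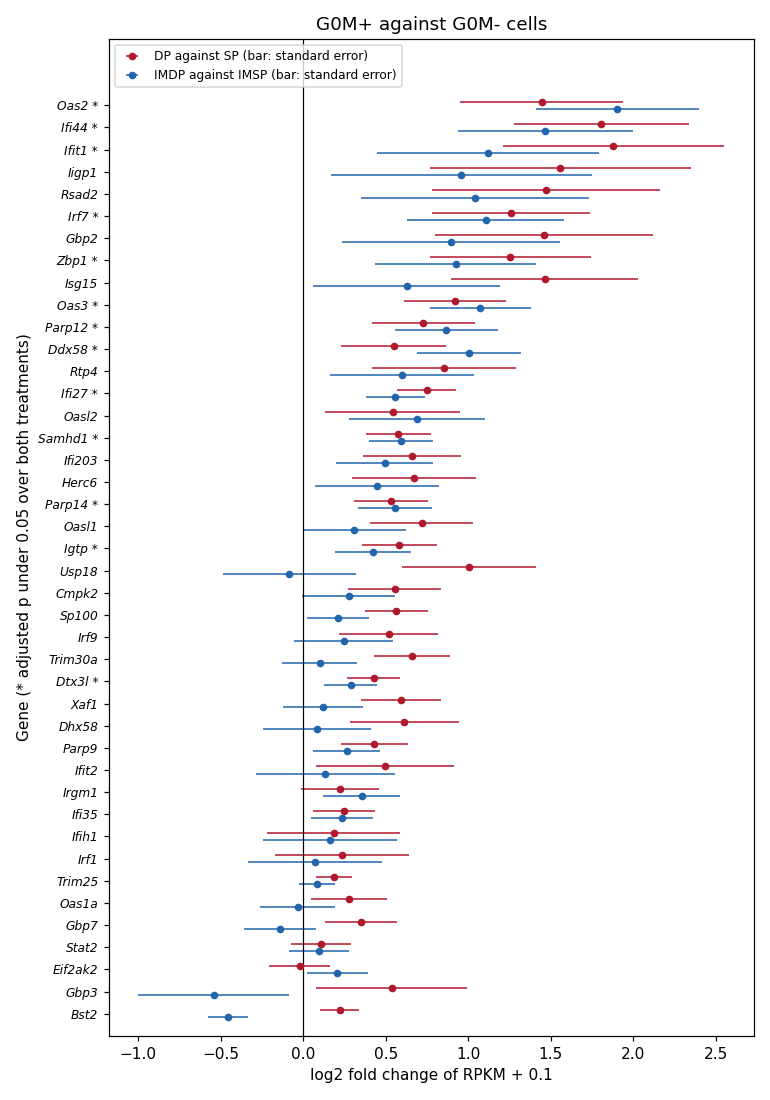
Log2 fold change of RPKM + 0.1 with its standard error for the 42 tested genes in DP against SP (red) and IMDP against IMSP (blue), ordered by the average over treatments. Points lie to the right of 0 for 41 genes in DP against SP and 37 in IMDP against IMSP, and the 5 blue points to the left of 0 are Gbp3 at -0.54, Bst2 at -0.46, Gbp7 at -0.14, Usp18 at -0.085 and Oas1a at -0.035. Stars mark the 13 genes past the threshold in the average.

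Few of these genes passed the threshold between imatinib and vehicle. Bst2 alone passed between IMDP and DP cells, as lower, where 0.367% of all genes passed. The median log2 fold change of the 42 was -0.16 and that of all genes was -0.17. In 7 genes (Bst2, Cmpk2, Ifi27, Igtp, Oas1a, Trim25 and Usp18) all IMDP libraries lay below all DP libraries, where 19% of all genes did so. Between IMSP and SP cells 0 of 42 passed in limma, 5 had an unadjusted p under 0.05 (8.39% of all genes did), limma-voom called 0, and 0% of all genes passed. Here the median was 0.02 against 0.08 over all genes, and Bst2 alone had all IMSP libraries below all SP libraries, where 2.72% of all genes did so. Averaged over populations, Bst2 alone passed, as lower, where 0.854% of all genes passed. The count of 1 between IMDP and DP cells became 0 on leaving out any 1 of DP replicates 1 and 2, IMDP replicates 2 and 3, IMSP replicate 3 and SP replicate 1.

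The interaction of population and treatment, which asks whether the G0M+ to G0M- difference changed with imatinib, passed for 0 of 42 genes in limma, with 1 (Bst2) at an unadjusted p under 0.05, where 9.3% of all genes were, and 0 passing in limma-voom, and it passed for 0% of all genes. Its median over the 42 was -0.24, next to -0.25 over all genes.

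The rest of the interferon pathway was read from 43 genes, of which 26 were tested. Interferon genes were nearly silent: of 11 listed, Ifna5, Ifne, Ifnl2 and Ifnl3 were at 0 in all libraries, and the highest value was 0.495 RPKM for Ifnk, while Ifnb1 was above 0 only in SP1 at 0.126 RPKM. Type I receptors were present. Ifnar1 stood at 5.44, 4.68 and 6.01 RPKM in DP, 6.15, 5.35 and 3.84 in SP, 6.61, 5.51 and 4.69 in IMDP, and 6.95, 6.79 and 7.30 in IMSP libraries, and Ifnar2 at 5.45, 4.50 and 5.18 RPKM in DP, 5.98, 5.55 and 5.32 in SP, 7.53, 5.22 and 7.04 in IMDP, and 8.14, 7.10 and 9.55 in IMSP libraries. The interferon gamma receptor chain Ifngr1 stood at 27.5, 9.47 and 17.4 RPKM in DP, 17.9, 38.2 and 9.27 in SP, 15.7, 13.1 and 14.7 in IMDP, and 35.5, 18.1 and 31.9 in IMSP libraries. Libraries of these 3 genes overlapped between the populations under vehicle. Under imatinib, all IMDP libraries lay below all IMSP libraries for Ifnar1 and Ifngr1, as in 32.8% of all genes, while those of Ifnar2 overlapped. The lambda receptor Ifnlr1 was at 0 in all libraries, and Il10rb, its partner chain, ranged from 2.25 to 6.68 RPKM.

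Across the 26 genes 0 passed as higher in either population comparison or in the average, and 4 passed as lower in IMDP than in IMSP cells, where 23.3% of all genes did. These were Ifngr2, the second chain of the gamma receptor, Mb21d1 (cGAS) and Tmem173 (STING), which sense cytosolic DNA, and Ptpn6, a phosphatase that dampens signaling. Their log2 fold changes were -0.57, -0.69, -0.78 and -0.41. Tmem173 and Ptpn6 also passed as lower in the average, where 21% of all genes did. The median of the 26 was -0.22 in this comparison, next to -0.25 over all genes. All 4 genes were short of the threshold when libraries were scaled to the same median, with limma adjusted p from 0.118 for Mb21d1 to 0.424 for Ptpn6. Under that scaling 0 of the 26 passed as lower and 2 as higher in IMDP than in IMSP cells (Irf2 and Jak1). Of all genes, 9.18% passed as lower and 6.30% as higher there. In the average 4 passed as higher (these and Irf5 and Jak2), where 11.1% of all genes did. The reads on listed features as denominator gave the same 2 and 4 genes, where 7.33% and 12.4% of all genes passed as higher. In DP against SP, IMDP against DP, IMSP against SP and imatinib averaged over populations, 0 of 26 passed in limma, with 2, 2, 6 and 4 at an unadjusted p under 0.05, where 13.2%, 20.5%, 8.39% and 18% of all genes were. The interaction likewise passed for 0 of 26, with 1 at an unadjusted p under 0.05.

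The gate markers were present in every library, with Kit at 16.8 to 39.8 RPKM and Cd27 at 12.2 to 21.4 RPKM. Ly6a, which encodes the gate marker Sca1 and is itself known to be induced by interferon, stood at 11.3, 5.61 and 18.3 RPKM in DP, 6.89, 3.12 and 3.63 in SP, 17.8, 18.4 and 20.8 in IMDP, and 4.71, 9.48 and 5.70 in IMSP libraries. It was higher in IMDP than in every IMSP library, and its log2 fold change was 1.42 ± 0.28 (SE, limma adjusted p = 0.00544) averaged over treatments. It is not one of the 46 genes.

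Markers of some other cells moved with the populations. Of the T and NK cell, B cell and neutrophil markers, 2, 1 and 1 were tested and 0 passed in any comparison. The macrophage genes C1qa, C1qb and C1qc were at 0 in all SP and IMSP libraries. C1qc stood at 1.65, 0.342 and 0.542 RPKM in DP and at 1.52, 1.50 and 1.05 RPKM in IMDP libraries. It passed as higher in G0M+ cells, having reached 1 RPKM in G0M+ libraries only. Adgre1, which reached 1 RPKM in 4 G0M+ libraries and 1 G0M- library, also passed. Thus 2 of the 5 tested genes of 7 macrophage and monocyte markers passed. The summed level of these 7 genes overlapped, at 29.5 to 43.4 RPKM in DP, 17.5 to 45.7 in SP, 50.3 to 66.5 in IMDP and 43.2 to 87.9 in IMSP libraries. Mast cell and basophil markers summed to 60.8 to 250 RPKM in DP, 7.03 to 15.0 in SP, 12.4 to 147 in IMDP and 5.51 to 17.4 in IMSP libraries, and 3 of 5 tested passed as higher in the average. Among those tested, Cma1, Prss34 and Ms4a2 were below 1 RPKM in every SP and IMSP library. They were thus tested only through the G0M+ libraries in which they are high. Erythroid markers summed to at most 245 RPKM in DP libraries, all of which stood above the 49.5 to 144 RPKM of SP libraries, and to 56.5 to 221 RPKM in IMDP and 9.36 to 71.2 in IMSP libraries, and 1 of 4 tested (Hbb-bt) passed as higher in the average. Megakaryocyte markers summed to 24.9 to 118 RPKM in DP, 10.7 to 34.2 in SP, 11.5 to 72.2 in IMDP and 6.35 to 26.6 in IMSP libraries, and 1 of 4 (Ppbp) passed. Ppbp was at most 0.1625 RPKM in SP and IMSP libraries, so it was tested only through the G0M+ libraries in which it is high. DP and SP libraries did not overlap in the mast cell sum either. The 5 plasmacytoid dendritic cell markers summed to 1.75 to 3.08 RPKM in DP, 1.70 to 2.66 in SP, 2.84 to 3.91 in IMDP and 2.96 to 3.17 in IMSP libraries. Of these, Tcf4 was present in every library, at 1.65 to 3.42 RPKM. Ccr9 was at most 0.494 RPKM and Ly6d at most 0.462 RPKM. Siglech was at 0 in 10 of 12 libraries and at most 0.171 RPKM, and Klk1 was at 0 in all. The part of these cells, and of the lower proliferation of G0M+ cells, in the levels of the interferon-stimulated genes was not tested. In bulk RNA of sorted cells, more cells with a gene on and more RNA per cell cannot be told apart.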

How the data were processed

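RNA-seq libraries of 100 sorted cells were primed with not-so-random primers and prepared with a Nextera XT kit. The authors mapped the reads to GRCm38 (mm10) and deposited RPKM values per feature. The study's methods name different mapping tools in different places, and whether a further normalization is part of the deposited RPKM is not given in the sources used here. Numbered copies of a gene were summed. Reads were recovered as whole numbers for 17735 features above 0 (tolerance 0.05 reads), with totals of 11.4 to 20.6 M reads per library. PCR copies were not marked, so depth covers counting error only.

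The test was limma 3.58.1 in R 4.3.3 on log2(RPKM + 0.1), a scale that understates the change of low genes, over the 10072 genes that reached 1 RPKM in 3 or more libraries. All 4 groups entered 1 fit, with a variance that follows the mean, and p-values were adjusted over all genes tested by the Benjamini-Hochberg method. Fits and read recovery were tested on simulated data. Python 3.11.15 was used for tables (pandas 2.3.3, numpy 2.4.6) and for plots (matplotlib 3.10.9). Gene positions came from GENCODE M21 (GRCm38) and promoters from RefSeq. The alternatives changed the filter, the pseudocount, the scaling, the denominator, the test (limma-voom on recovered reads), the groups in the fit, the block and the libraries.

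Same-numbered IMDP and IMSP libraries deviated together over genes (r of 0.43, 0.65 and 0.46), so the numbers in the sample titles pair these groups, whereas same-numbered DP and SP libraries did not (r of -0.19, -0.30 and -0.10). The library-number block pairs neighbouring numbers of the sample descriptions. The 46 genes, the gene lists, the comparisons and the naming rule were chosen with earlier results of these data known. All values were given for genes past the threshold in any of the 4 pairwise or 2 averaged comparisons, and for the most abundant gene of a role with none. A gene of the pathway lists is not reported here.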

Additional observations from a re-analysis of the deposited data

Results flagged for a closer look

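Bst2 differed in direction between the treatments. All 3 DP libraries stood above all 3 SP libraries, and all 3 IMDP libraries stood below all 3 IMSP libraries, and the test of this difference, the interaction of population and treatment in limma, gave -0.68 on the log2 scale, with an unadjusted p of 0.00178 and an adjusted p of 0.534, which misses the threshold, where 9.3% of all genes had an unadjusted p under 0.05. In 32.8% of all genes the IMDP libraries were all below the IMSP libraries, and with libraries scaled to the same median Bst2 did not pass in IMDP against IMSP (-0.18, limma adjusted p = 0.245). The lowest DP library, at 19.9 RPKM, was close to the highest SP library, at 19.7 RPKM. The imatinib libraries carry the numbers 1 to 6 and the vehicle libraries 7 to 12, so the treatment and the library number cannot be told apart.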

How the results depend on the processing

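Averaged over treatments, the 13 genes higher in G0M+ cells became 21 with libraries scaled to the same median, 22 with the reads on listed features as denominator and 28 with the library-number block, while the share of all genes higher went from 5.32% to 11.1%, 12.4% and 13.4%. The count of 13 ranged from 5 to 20 when 1 library was left out. The 6 genes between IMDP and IMSP cells became 3 without a filter on low values, 10 with scaled libraries, 12 with the other denominator and 14 with the library-number block, and ranged from 0 to 9 with 1 library left out. Under both scalings all of them were higher in IMDP cells, since Bst2 no longer passed, and the share of all genes higher rose from 2.37% to 6.30% and 7.33%. Between DP and SP cells, 0 became 1 with a pseudocount of 1 RPKM or scaled libraries and 17 with the library-number block, and ranged from 0 to 1. Between IMDP and DP cells, 1 became 0 under both scalings, in limma-voom and with only these groups in the fit, and ranged from 0 to 1. For imatinib averaged over populations the count ranged from 0 to 2, reaching 0 without any 1 of DP replicates 1 and 2, IMDP replicate 3, IMSP replicates 1 and 3, and SP replicates 1 and 3, and 2 without IMSP replicate 2 or SP replicate 2. Calls among the other pathway genes, 6 in all comparisons, ranged from 1 to 7 when 1 library was left out. There was 1 without IMDP replicate 2 or IMSP replicate 1, and there were 3 without IMDP replicate 3. Under both scalings the calls were all higher and of other genes, as named in the report for G0M+ against G0M- cells. The library-number block gave 1 higher and 7 lower in IMDP against IMSP, where 8.22% and 35.9% of all genes passed. It gave 5 higher and 8 lower in the average, where 13.4% and 33.4% of all genes passed.

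With the replicate block, 4 genes passed between IMDP and IMSP cells and 12 averaged over treatments, and the counts in the other comparisons were those given in the report. Of all genes, 27.6% passed in the first (2.21% as higher) and 27.9% in the second (4.925% as higher). Besides the calls already named, the block also ended that of Ptpn6 averaged over treatments (limma adjusted p = 0.0506). Median log2 fold changes of the 42 genes moved by less than 0.396 under every alternative, the SD between replicates of their median log2 level. That SD exceeds the median of 0.33 in IMDP against IMSP, so it is a loose bound for these medians. Those of the 3 population comparisons stayed above 0, whereas the others changed sign under some: over all alternatives they ranged from -0.26 to 0.04 in IMDP against DP, from -0.17 to 0.17 in IMSP against SP, from -0.15 to 0.056 for imatinib averaged over populations and from -0.51 to 0.026 for the interaction. Of 27 calls of single genes, none changed direction under any alternative. Without leaving out a library, 160 of 198 values stayed past the threshold, and 199 of 324 did with 1 library left out. The causes of these changes were not tested. Depth limits the lowest genes: Isg15 rested on 2 to 24 reads, Ifit1 on 3 to 102 and Zbp1 on 8 to 44.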
